A study of Mus musculus with 9 samples.

Results

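Matrix proteases and the inhibitors that restrain them were examined in 9 RNA-seq libraries of co-cultured mouse tumor cells and astrocytes. The 9 genes were the secreted gelatinases Mmp2 and Mmp9, the membrane-anchored metalloproteinase Mmp14, the tissue inhibitors of metalloproteinases Timp1, Timp2 and Timp3, the plasminogen activators Plau and Plat, and the serine protease inhibitor Serpine2. They were taken by name out of the 49315 genes of the count table, and each name matched exactly 1 gene ID. SB28 is a mouse glioblastoma cell line labelled with GFP. Untreated SB28 cells were grown for 2 days, at equal numbers, with primary neonatal astrocytes of C57BL6 mito::mKate2 mice, in which a ubiquitous promoter drives the red fluorescent protein mKate2 into mitochondria. Cells were then sorted into astrocytes, SB28 cells without the mKate2 signal (mKate2−) and SB28 cells that carried it (mKate2+), with 3 libraries from 3 separate co-cultures for each population. No population was cultured alone, so all 9 libraries share the co-culture, its serum and its growth factors, and SB28 is a single line. The comparisons ask how tumor cells differ from the donor astrocytes, and whether tumor cells that acquired astrocyte mitochondria differ from those that did not.

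Metalloproteinases of the MMP family cut collagens and other matrix proteins. Mmp14, which sits on the cell surface, activates the secreted proenzyme of Mmp2 in a complex that also contains Timp2, and Timp3 differs from its relatives in being bound to the matrix. The urokinase Plau and the tissue-type activator Plat convert plasminogen to plasmin, and Serpine2, also called protease nexin-1, inhibits both of them as well as thrombin. In glioblastoma this machinery is known for its part in the invasion of brain tissue.

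Total counts per library ranged from 24454561 to 35135662 in astrocytes, from 27187348 to 35891589 in mKate2− cells and from 34175016 to 39287841 in mKate2+ cells. Levels of 1 gene are given as CPM, the count scaled to the total count of its library, and levels of different genes are compared as FPKM, the CPM per kilobase of merged exons. A pair of libraries stood apart from the others of their groups. Astrocyte replicate 3 had 362 CPM of the astrocyte marker Aldoc and 59.7 CPM of the water channel Aqp4, against at most 55.6 and 6.82 CPM in the other astrocyte libraries. In mKate2+ replicate 2, the 513 genes with under 1000 bases of exon lay a median 0.49 above the mean of the SB28 libraries on the log2 scale and the 4238 genes over 6000 bases differed from it by a median of -0.15.

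The astrocyte libraries carried defining astrocyte RNAs at high levels. The glutamate transporter Slc1a3 was at 173, 177 and 236 CPM in replicates 1, 2 and 3, against at most 2.38 CPM in any SB28 library, and Aldh1l1 was at 140, 111 and 172 CPM. Gfap, the intermediate filament of mature astrocytes, was low at 8.83, 3.42 and 19.4 CPM, and S100b did not exceed 2.16 CPM. The 16 astrocyte markers summed to 1297, 1258 and 2072 CPM in the astrocyte libraries and to between 508 and 553 CPM in the SB28 libraries, where the gap junction gene Gja1 was the most abundant of them.

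Other cell types could contribute to a primary culture, so their marker lists were summed as well. The 12 microglia and macrophage markers summed to 40.9, 29.7 and 31.5 CPM in the astrocyte libraries, most of it from Tmem119 (39.1, 24.8 and 30.5 CPM), which was also at 47.3 to 61.1 CPM in SB28 cells. The microglial receptor P2ry12 was at 1.06, 2.54 and 0.484 CPM in astrocytes and at no more than 0.0555 CPM in SB28 cells, whereas Cx3cr1 and C1qa did not exceed 0.142 CPM in any library. The 7 mural cell markers summed to 163, 201 and 326 CPM in astrocyte replicates 1, 2 and 3, led by Notch3 at 75.3, 94.7 and 166 CPM, against 13.9 to 22.9 CPM in SB28 libraries. Their sum was highest in astrocyte replicate 3. The mural markers Rgs5, Abcc9, Kcnj8 and Myh11 did not exceed 2.73, 1.88, 0.797 and 0.427 CPM in any astrocyte library. The 8 endothelial markers summed to 20.4, 33.4 and 209 CPM, with Flt1 at 192 CPM in replicate 3 and at 47.5 to 60.2 CPM in SB28 cells. Esam was at 12.8, 19.0 and 9.82 CPM in astrocytes and at most 0.388 CPM in SB28 cells, and Cldn5 was at 0 in all 3 astrocyte libraries. Fibroblast markers summed to 1483, 1563 and 1252 CPM, led by Col1a2 at 838 to 1110 CPM, which was also at 386 to 590 CPM in SB28 cells. Thy1, which fibroblasts share with neurons, was at 49.7, 28.0 and 108 CPM in astrocytes and at most 0.871 CPM in SB28 cells, while Dcn and Lum did not exceed 2.45 CPM. The 8 oligodendrocyte lineage markers summed to 946, 499 and 566 CPM, led by Olig1 at 541, 241 and 304 CPM, with Sox10 at no more than 0.0611 CPM, and the 6 neuronal markers summed to 53.4, 98.8 and 88.5 CPM. Among these Stmn2 was at 11.4, 43.4 and 38.5 CPM in astrocytes and at most 1.47 CPM in SB28 cells, Map2 at 28.0, 44.2 and 37.5 CPM against 15.1 to 22.4 CPM, and Rbfox3 at 0. The part of other cell types in the protease and inhibitor levels was not tested.

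**Figure D1:**
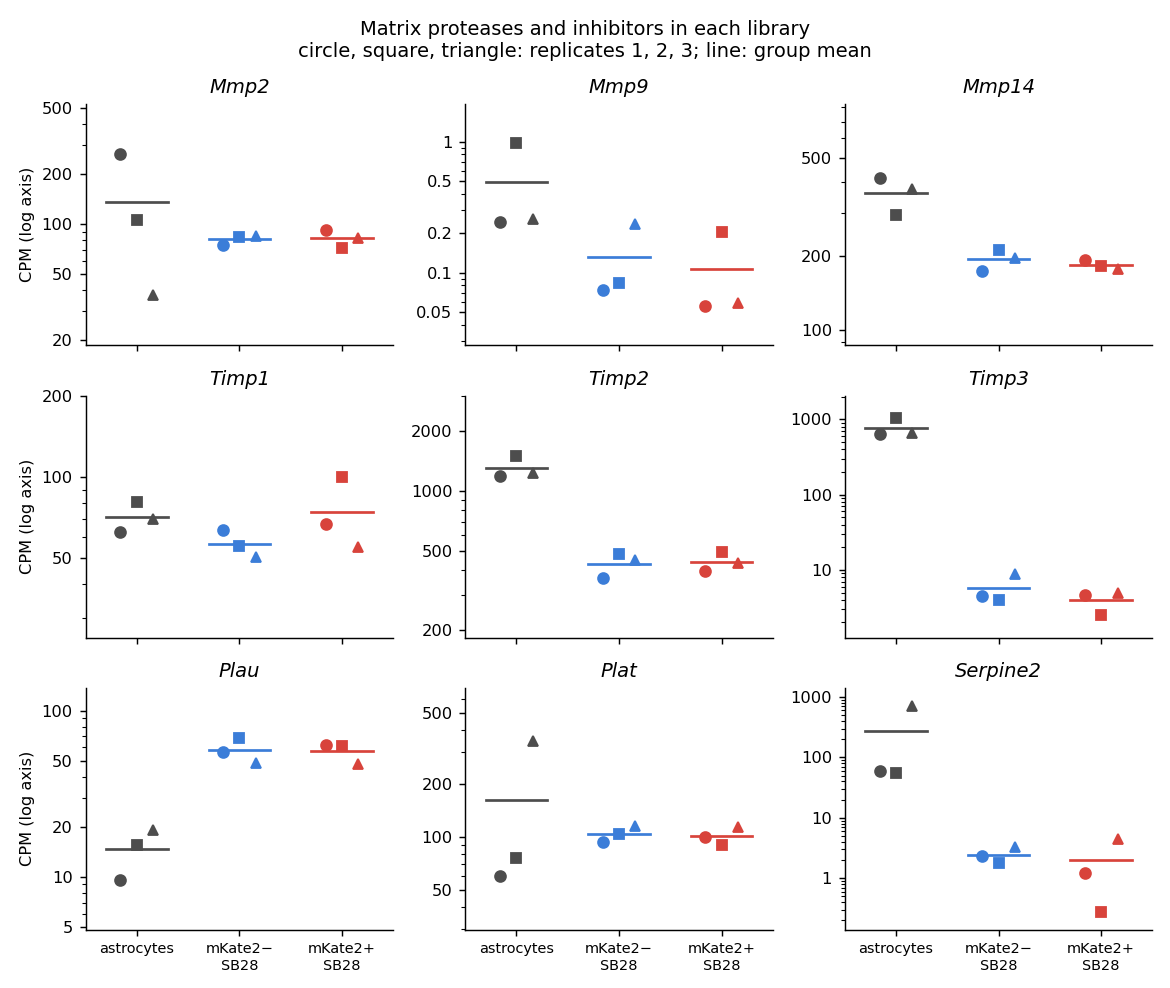
Level of each of the 9 genes in every library, as CPM on log axes whose range differs between panels. Circles, squares and triangles are replicates 1, 2 and 3 and lines are group means. Timp2, Timp3, Mmp14 and Serpine2 lie higher in every astrocyte library than in any SB28 library, and Plau lies lower. Mmp9 separates narrowly as well, at 0.245 CPM or more in astrocytes and at most 0.235 CPM in SB28 cells. The share of all genes that separate in this way was not counted. The mKate2− and mKate2+ points interleave.

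Of the 9 genes, 8 were abundant enough to test, and the same pattern of calls was obtained in both tumor populations against astrocytes. In mKate2− cells 1 gene was called higher, Plau, and 3 were called lower, Timp2, Timp3 and Serpine2, by edgeR's quasi-likelihood test, where a call required an adjusted P value under 0.05 together with a log2 fold change beyond 1 in size. Among all 13356 genes tested in that comparison, 11.5% were called higher and 22.4% lower. The same genes were called in mKate2+ cells, where 12.2% of 13342 genes were higher and 22.8% lower. The share of members called, 4 of 8, stood beside 33.9% and 35% of all genes called in either direction, and the astrocyte libraries are shared between both comparisons. The median log2 fold change of the 8 genes was -0.82 in mKate2− and -0.78 in mKate2+ cells, against -0.038 and -0.018 over all genes. In such bulk libraries, fewer cells that express a gene and less RNA of it per cell cannot be told apart. Where libraries of the populations are said below not to overlap, the share of all genes that separate in this way was not counted. At an edgeR adjusted P value under 0.05 alone, 63.1% of all genes differed from astrocytes in mKate2− and 60.1% in mKate2+ cells. Gene positions below are those of GENCODE M21 on GRCm38.

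Among the proteases, Mmp14 (ENSMUSG00000000957, chr14:54431612-54445364, plus strand) was moderately lower in tumor cells. It was at 414, 294 and 374 CPM in astrocyte replicates 1, 2 and 3, at 174, 212 and 196 CPM in mKate2− cells and at 192, 183 and 177 CPM in mKate2+ cells. All astrocyte libraries were above all SB28 libraries, with no overlap. Its log2 fold change was -0.88 ± 0.16 (SE, n = 3 libraries per group, edgeR adjusted P = 0.00191) in mKate2− and -0.90 ± 0.16 (edgeR adjusted P = 0.00199) in mKate2+ cells. The difference therefore passed the threshold on the adjusted P value, as did 63.1% and 60.1% of all genes, but not the one on size. Without astrocyte replicate 2 it passed both, at -1.03 and -1.05 (edgeR adjusted P = 0.00105 and 0.00149).

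Mmp2 (ENSMUSG00000031740, chr8:92827291-92853420, plus strand), which degrades gelatin and type IV collagen, varied more among astrocyte libraries than between populations. Its level was 267, 107 and 37.3 CPM in astrocyte replicates 1, 2 and 3. In mKate2− cells it was 75.5, 84.3 and 84.8 CPM, and in mKate2+ cells 92.9, 72.2 and 82.2 CPM. The SB28 libraries thus lay inside the range of the astrocyte libraries, of which replicate 1 was far above and replicate 3 below them. The log2 fold change was -0.75 ± 0.59 (SE, edgeR adjusted P = 0.295) in mKate2− and -0.67 ± 0.59 (edgeR adjusted P = 0.352) in mKate2+ cells. A single library set its direction: without astrocyte replicate 1 it became 0.20 and 0.27, and without replicate 3 it was called lower at -1.19 and -1.14 (edgeR adjusted P = 0.0107 and 0.0243).

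Mmp9 (ENSMUSG00000017737, chr2:164940780-164955850, plus strand), the other gelatinase, was scarcely detected. Counts were 6, 32 and 9 reads in the astrocyte libraries, 2, 3 and 7 in mKate2− cells and 2, 8 and 2 in mKate2+ cells, or at most 0.978 CPM. It stayed below the minimum of 1 CPM in at least 2 libraries and was not tested, and at 3 counts or fewer in 4 of the SB28 libraries no fold change is given.

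Among the metalloproteinase inhibitors, Timp2 and Timp3 were far lower in tumor cells, whereas Timp1 was not called. Timp2 (ENSMUSG00000017466, chr11:118301069-118355740, minus strand), which takes part in the activation of Mmp2 as well as in its inhibition, was at 1192, 1502 and 1230 CPM in astrocytes, 368, 482 and 450 CPM in mKate2− cells and 399, 493 and 434 CPM in mKate2+ cells. No SB28 library reached the lowest astrocyte library. The log2 fold change was -1.58 ± 0.15 (SE, n = 3 per group, edgeR adjusted P = 9.04e-05) in mKate2− and -1.49 ± 0.16 (edgeR adjusted P = 0.000223) in mKate2+ cells. With any library left out it stayed between -1.66 and -1.40 over both comparisons.

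Timp3 (ENSMUSG00000020044, chr10:86300372-86349506, plus strand), the matrix-bound inhibitor, showed one of the widest separations. It was at 631, 1028 and 655 CPM in astrocytes, at 4.56, 3.93 and 8.71 CPM in mKate2− cells and at 4.63, 2.52 and 4.92 CPM in mKate2+ cells. Every astrocyte library was far above every SB28 library, with no overlap. Its log2 fold change was -7.06 ± 0.39 (SE, edgeR adjusted P = 1.00e-05) in mKate2− cells, 133-fold lower, and -7.52 ± 0.35 (edgeR adjusted P = 7.885e-06) in mKate2+ cells, 183-fold lower. Leaving out any library kept the log2 value between -7.67 and -6.82. The exons of Timp3 overlap those of Syn3 on the opposite strand over 1733 bases. The sources used here do not state whether reads were counted by strand, so reads of that stretch cannot be assigned to 1 gene with certainty.

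Timp1 (ENSMUSG00000001131, chrX:20870166-20874735, plus strand), the shortest of the 3 inhibitors at 888 bases of exon, was not called in either comparison. It was at 62.9, 80.9 and 70.0 CPM in astrocytes, 63.8, 55.6 and 50.7 CPM in mKate2− cells and 66.9, 101 and 54.9 CPM in mKate2+ cells. The groups overlap, and mKate2+ replicate 2, the library in which short genes were high, had the highest value of all. Against astrocytes the log2 fold change was -0.31 ± 0.13 (SE, edgeR adjusted P = 0.0667) in mKate2− and 0.15 ± 0.24 (edgeR adjusted P = 0.626) in mKate2+ cells. Without mKate2+ replicate 2 the latter became -0.18, and with the trend on gene length removed from each library it became -0.27.

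Among the plasminogen activators, Plau (ENSMUSG00000021822, chr14:20836660-20843385, plus strand) was the 1 gene of the set called higher in tumor cells. Its level was 9.61, 15.4 and 19.2 CPM in astrocytes, 56.8, 68.5 and 48.1 CPM in mKate2− cells and 62.4, 61.6 and 47.5 CPM in mKate2+ cells. The populations did not overlap, and the lowest SB28 library was well above the highest astrocyte library. Plau was 3.97-fold higher in mKate2− cells (log2 fold change 1.99 ± 0.25, SE, edgeR adjusted P = 0.000328) and 4.10-fold higher in mKate2+ cells (2.03 ± 0.26, edgeR adjusted P = 0.000440). With single libraries left out the log2 value ranged from 1.76 to 2.24.

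The size of the Plau difference stands beside the level of other tumor-enriched RNAs in the astrocyte libraries. Of 4723 genes above 50 CPM in SB28 cells, 0 were 10 times higher there than in astrocytes, whereas of 4693 genes above 50 CPM in astrocytes 220 were at least 10 times higher than in SB28 cells. The 20 genes with the highest SB28-to-astrocyte ratios were at 13.5%, 19.8% and 14.2% of their SB28 level in astrocyte replicates 1, 2 and 3. Plau was at 16.7%, 26.9% and 33.4% of its SB28 mean in the same libraries, above those genes in each. These 20 genes were picked for their ratios, so their low percentage is partly a product of the choice, and the part of SB28 RNA in the Plau level of astrocyte libraries was not tested.

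Plat (ENSMUSG00000031538, chr8:22757727-22782844, plus strand), the activator known for fibrinolysis and for roles at neuronal surfaces, was not called. It was at 59.7, 76.2 and 347 CPM in astrocytes, 93.1, 104 and 115 CPM in mKate2− cells and 99.4, 89.4 and 113 CPM in mKate2+ cells. Astrocyte replicates 1 and 2 lay below all SB28 libraries and replicate 3 far above them. The log2 fold change was -0.60 ± 0.60 (SE) in both comparisons (edgeR adjusted P = 0.403 and 0.415). Without astrocyte replicate 3 its sign turned, to 0.62 and 0.61 (edgeR adjusted P = 0.00437 and 0.0122), under the threshold on size.

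Serpine2 (ENSMUSG00000026249, chr1:79794197-79861180, minus strand), the inhibitor of both activators, was far lower in tumor cells, but its astrocyte level differed widely between replicates. It was at 60.4, 54.5 and 709 CPM in astrocytes, 2.32, 1.78 and 3.25 CPM in mKate2− cells and 1.22, 0.280 and 4.39 CPM in mKate2+ cells. The lowest astrocyte library was still above every SB28 library, and astrocyte replicate 3 exceeded its 2 companions by an order of magnitude. The log2 fold change was -6.78 ± 1.19 (SE, edgeR adjusted P = 0.00167) in mKate2− cells, 110-fold lower, and -7.08 ± 1.43 (edgeR adjusted P = 0.00394) in mKate2+ cells, 135-fold lower. Without astrocyte replicate 3 it was -4.56 and -4.86, and without mKate2+ replicate 3 it was -8.44 in mKate2+ cells. The highest edgeR adjusted P value over all alternatives that gave one was 0.0116 in mKate2− and 0.0181 in mKate2+ cells. DESeq2 returned no adjusted P value for Serpine2.

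**Figure D2:**
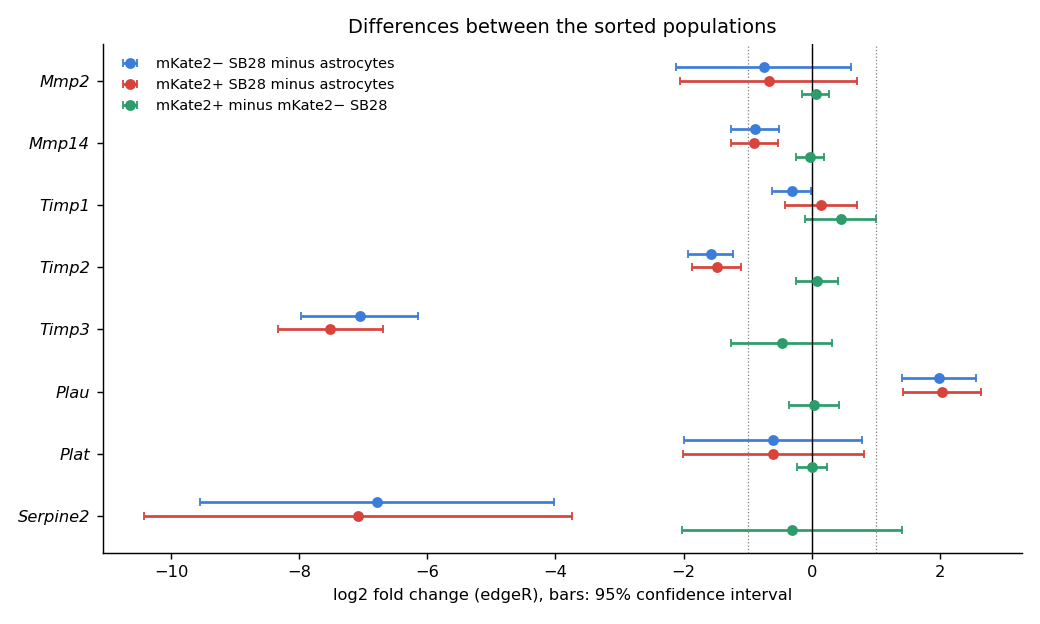
Fitted log2 fold change of the 8 tested genes in the 3 comparisons, with 95% confidence intervals as bars and dotted lines at -1 and 1. Timp3 and Serpine2 lie near -7 in both comparisons with astrocytes, Plau near 2, and all differences between mKate2+ and mKate2− cells have intervals that include 0.

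**Figure D3:**
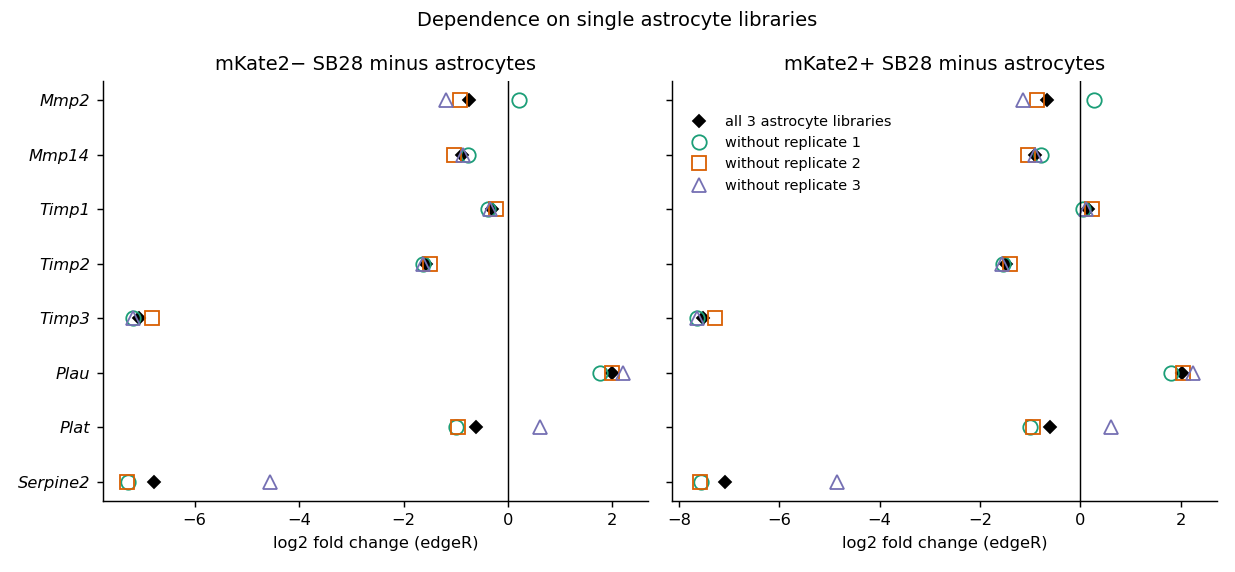
Log2 fold change of each tested gene against astrocytes with all 3 astrocyte libraries (diamonds) and with replicate 1, 2 or 3 left out (circles, squares, triangles). Mmp2 crosses 0 without replicate 1, Plat crosses 0 without replicate 3, and Serpine2 moves to -4.56 and -4.86 without replicate 3, while Timp2, Timp3 and Plau stay close to their values.

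Timp3 and Serpine2 were both far lower in tumor cells, and the sequences before their RefSeq starts are shown for that reason. RefSeq sequences of GRCm38.p6 matched 5 of the 9 genes, and the window printed runs from 250 to 41 bases before the RefSeq start, 5′ to 3′ on the gene's strand. Capitals mark GC boxes (GGGCGG, either strand), the 1 motif found in this pair.
Timp3: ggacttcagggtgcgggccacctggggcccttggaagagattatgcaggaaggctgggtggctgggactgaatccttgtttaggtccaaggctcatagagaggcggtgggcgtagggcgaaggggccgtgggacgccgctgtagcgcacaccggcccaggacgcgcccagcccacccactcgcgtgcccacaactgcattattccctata
Serpine2: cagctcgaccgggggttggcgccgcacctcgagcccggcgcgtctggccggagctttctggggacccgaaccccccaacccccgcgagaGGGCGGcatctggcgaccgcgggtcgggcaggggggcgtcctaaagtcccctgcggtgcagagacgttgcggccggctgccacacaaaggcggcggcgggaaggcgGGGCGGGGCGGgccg
The Timp3 window (chr10:86300162-86300371, plus strand) held 13 CpG dinucleotides at 63.8% G and C, with 0 matches to any motif searched. The Serpine2 window (chr1:79858706-79858915, minus strand) held 29 CpG dinucleotides at 76.7% G and C and 3 GC boxes, of which a neighbouring pair share 1 base. The RefSeq and GENCODE starts of Serpine2 differ, and this window lies inside the GENCODE gene span given above, downstream of its outermost start. For comparison, the median over 32851 promoter windows of the same length was 51.9% G and C, and 26.7% of them held a GC box. An AP-1 motif written as TGANTCA was searched on both strands and was present in 5.84% of all windows. The TATA box, searched as the letters TATAAA, was present in 9.56% of them, and the CCAAT box in 29.9%. Neither window printed here held any of these 3 motifs. The windows end 41 bases before the start and leave out the stretch nearer to it, where a TATA box usually lies. Whether these genes have a TATA box was therefore not tested.

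On the per-length scale, the TIMP inhibitors together exceeded the MMPs in every library. In astrocytes the order of mean FPKM was Timp2 at 336, Timp3 at 94.7, Timp1 at 80.2, Mmp14 at 60.5, Mmp2 at 40.6, Serpine2 at 33.2, Plat at 25.8, Plau at 6.23 and Mmp9 at 0.139. The Serpine2 mean rested on replicate 3, with 7.28, 6.58 and 85.6 FPKM in replicates 1, 2 and 3. Neighbours whose ranges over 3 libraries overlapped were Timp3 and Timp1, and each successive pair from Mmp14 to Plat. In mKate2− cells Timp2 at 111 and Timp1 at 63.9 FPKM led, followed by Mmp14 at 32.5, Plau at 24.4, Mmp2 at 24.2 and Plat at 16.7 FPKM, and Timp3 at 0.704, Serpine2 at 0.296 and Mmp9 at 0.0369 FPKM closed the order. The mKate2+ order was the same except that Mmp2 at 24.5 FPKM stood before Plau at 24.2 FPKM, a pair whose ranges overlapped in both tumor populations. In mKate2+ cells the ranges of Timp2 and Timp1 overlapped as well, as did those of Timp3 and Serpine2 and of Serpine2 and Mmp9. Exon length matters for these orders: with the longest transcript in place of merged exons, the means of Mmp14 and Serpine2 moved ahead of that of Timp1 in astrocytes. Serpine2 did so through replicate 3 alone, at 17.8, 16.1 and 209 FPKM on that length against 71.2 to 91.7 FPKM for Timp1.

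The makeup of the TIMP inhibitors differed between astrocytes and tumor cells. Timp3 made up 17.1%, 20.9% and 16.9% of the summed FPKM of Timp1, Timp2 and Timp3 in astrocytes, and between 0.129% and 0.616% in SB28 libraries. Conversely, Timp1 made up 15.8% ± 0.753 (SD, n = 3) of that sum in astrocytes, 36.5% ± 5.67 in mKate2− cells and 41.7% ± 5.83 in mKate2+ cells. The ratio of these inhibitors to the sum of Mmp2, Mmp9 and Mmp14 was 3.05, 7.43 and 6.42 in astrocytes, 3.24, 3.08 and 2.99 in mKate2− cells and 2.98, 4.61 and 3.21 in mKate2+ cells, so that astrocyte replicate 1, with its high Mmp2, fell among the tumor libraries. With the longest transcript as length, the Timp3 share became 25.4%, 30.5% and 25.2% in astrocyte replicates 1, 2 and 3. It was then between 0.216% and 1.02% in SB28 libraries.

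Relative to the plasminogen activators, Serpine2 was low in tumor cells. Serpine2 FPKM relative to the sum of Plau and Plat was 0.534, 0.351 and 1.34 in astrocyte replicates 1, 2 and 3, and did not exceed 0.0139 in any SB28 library. Plat supplied 70.2%, 65.2% and 87.3% of activator FPKM in astrocytes, against 40.8% ± 5.86 (SD, n = 3) in mKate2− and 40.2% ± 6.37 in mKate2+ cells. The groups did not overlap in either measure. With the longest transcript as length, the mean Plat share became 81.2% in astrocytes and 51.2% and 50.5% in tumor cells. The Serpine2 ratio became 0.942, 0.632 and 2.22 in astrocyte replicates 1, 2 and 3, and at most 0.0268 in SB28 libraries.

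**Figure D4:**
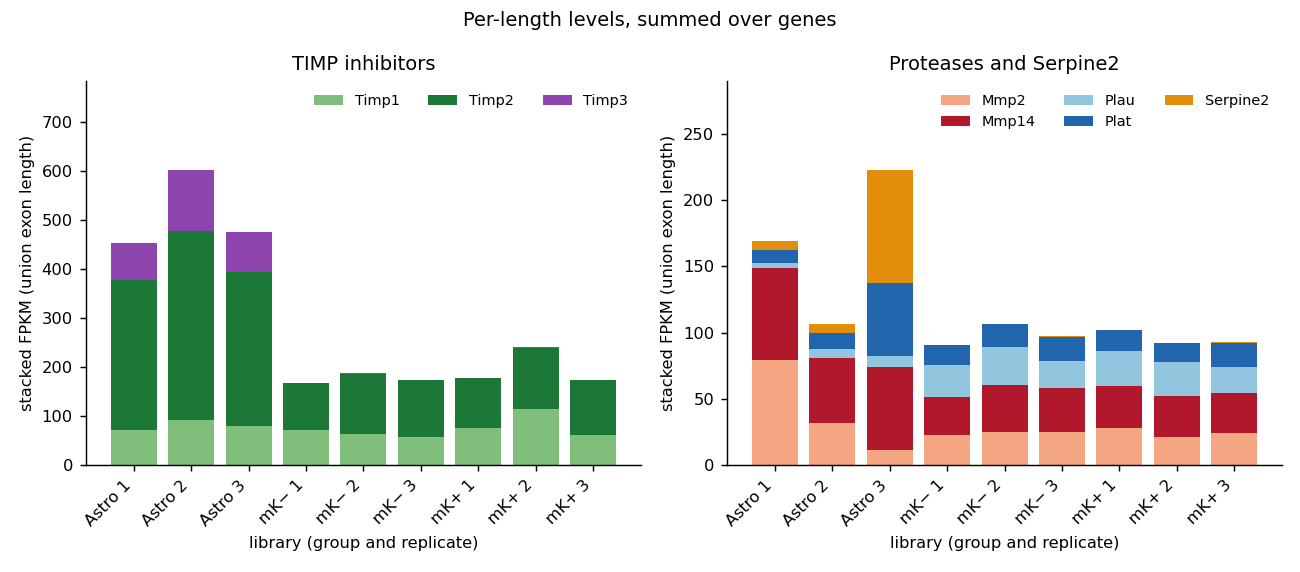
Stacked FPKM on merged exon length in each library, with the TIMP inhibitors on the left and the proteases Mmp2, Mmp14, Plau and Plat with Serpine2 on the right. Astro, mK− and mK+ are astrocytes, mKate2− and mKate2+ cells with their replicate number: Timp3 is visible in the 3 astrocyte bars alone, and astrocyte replicate 3 stands apart through Serpine2 and Plat.

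No difference between tumor cells with and without astrocyte mitochondria was detected in any of the 8 tested genes. At an adjusted P value under 0.05, 0 of 8 were called, as were 0% of all 11854 genes by edgeR, of which 241 were under 0.05 before adjustment, and 0 by DESeq2. The study selected genes raised in mKate2+ cells by more than 1.5-fold, with a count over 50 and P under 0.05 without adjustment. Here that rule was applied in both directions, with the count read as the mean normalized count, and it called 0 of 8 against 0.363% of all genes, 0.194% higher and 0.169% lower. The smallest adjusted P value of any gene was 0.923, and the median log2 fold change was 0.019 for these genes and 0.0033 for all.

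Narrow intervals were obtained for 5 abundant genes, and a wider one for Timp1, given below. For mKate2+ minus mKate2− cells the log2 fold change was 0.06 for Mmp2 (95% confidence interval -0.15 to 0.28), -0.02 for Mmp14 (-0.24 to 0.20) and 0.00 for Plat (-0.23 to 0.23). Timp2 was at 0.08 (-0.25 to 0.41) and Plau at 0.04 (-0.35 to 0.42). A change of 1 log2 unit therefore lay outside the interval for each of these 5 genes. The intervals were wider for Timp3 at -0.47 (-1.26 to 0.32) and Serpine2 at -0.30 (-2.02 to 1.41), whose counts in SB28 libraries were low.

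Timp1 had the largest positive value, 0.45 (95% confidence interval -0.10 to 1.00, edgeR adjusted P = 0.923). It fell to 0.11 without mKate2+ replicate 2, in which short genes as a class were high, and was 0.63 without mKate2+ replicate 3. Leaving out that replicate brought Timp1 to the study's rule and Serpine2 (log2 fold change -1.68) to its mirrored form for lower genes, with edgeR adjusted P = 0.771 for both. Among the 6 SB28 libraries the highest level was 1.22 times the lowest for Mmp14, 1.28 times for Plat, 1.29 times for Mmp2, 1.34 times for Timp2 and 1.44 times for Plau, against 1.98 times for Timp1, 3.46 times for Timp3 and 15.7 times for Serpine2.

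The low counts of Timp3 in SB28 libraries moved with those of other astrocyte RNAs, and those of Serpine2 did so in part. A total of 77 other genes exceeded 50 CPM in astrocytes by mean and their SB28 level by a factor of 100 or more, a choice that holds their level in SB28 libraries near or below 1%. Together they were at 0.655%, 0.504% and 1.21% of their astrocyte level in mKate2− replicates 1, 2 and 3, and at 0.721%, 0.345% and 0.715% in mKate2+ replicates 1, 2 and 3. Timp3 was at 0.591%, 0.509% and 1.13% of its astrocyte mean in the mKate2− libraries and at 0.601%, 0.327% and 0.637% in the mKate2+ libraries. The highest and the lowest library were the same for Timp3 as for the 77 genes. Serpine2 was at 0.843%, 0.649% and 1.18% in mKate2− and at 0.444%, 0.102% and 1.60% in mKate2+ libraries, lowest in the same library as the others but highest in mKate2+ replicate 3. These Serpine2 percentages rest on astrocyte replicate 3: without it they were 4.03%, 3.10% and 5.66% in mKate2− and 2.12%, 0.487% and 7.64% in mKate2+ libraries, against 0.450% to 1.58% for the 77 genes and 0.304% to 1.05% for Timp3. The part of astrocyte RNA in these levels was not tested.

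**Figure D5:**
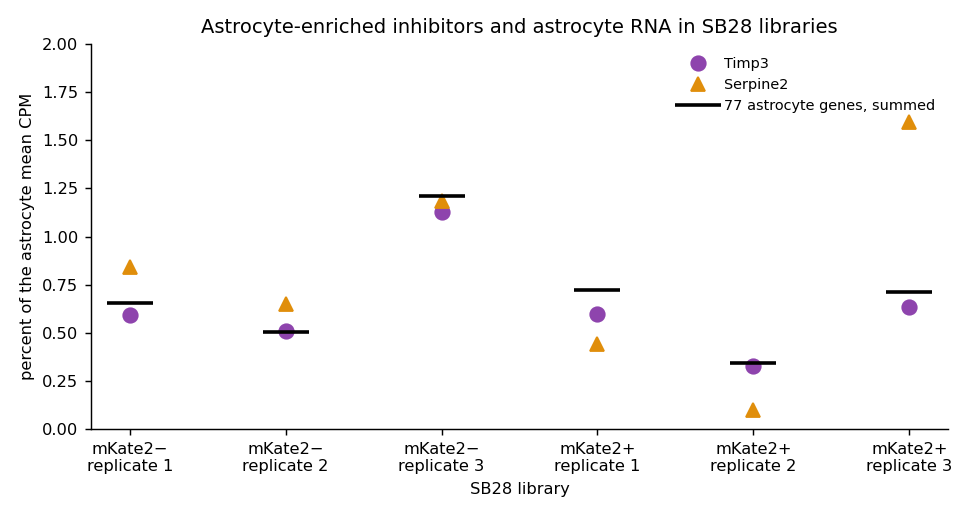
Timp3 (circles), Serpine2 (triangles) and the sum of 77 other astrocyte genes (bars) in each SB28 library, as a percentage of the mean CPM in astrocytes. Timp3 lies close to the bar in all 6 libraries. Serpine2 departs most from the bar, in percentage points, in mKate2+ replicate 3, at 1.60%. That value is 7.64% with astrocyte replicate 3 left out of the mean.

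Genes with similar profiles were sought as those with the smallest root mean square (RMS) difference of centred log2 CPM over the 9 libraries, among 13449 genes. The nearest to Timp3 were the G-protein regulator Rgs8 (RMS difference 0.217) and the homeobox gene Vax1 (0.263). Igfbp5 (0.516) and the transferrin gene Trf (0.536) came nearest to Serpine2. Neuronal pentraxin Nptx1 (0.143) and Atp13a4 (0.130) were nearest to Plau. For Mmp2 they were Nrn1 (0.277) and Il34 (0.352), for Mmp14 Rgs12 (0.0792) and Ranbp9 (0.0802), and for Timp2 6330403L08Rik (0.109) and Vopp1 (0.109). Timp1 lay nearest to Gtf2h5 (0.130) and Tmsb4x (0.131), and Plat to Dnajc12 (0.181) and Atxn7l1 (0.197).

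Of 16 other extracellular protease inhibitors, 11 were tested in mKate2− and 12 in mKate2+ cells, and in each comparison 2 were called higher and 7 lower. Over all genes tested 11.5% and 12.2% were called higher and 22.4% and 22.8% lower. The median log2 fold change was -5.34 and -5.32, but 5 of the 16 passed the filter within the 6 SB28 libraries, and the others tested passed it only with the astrocyte libraries, so neither the count nor the median describes all 16. Reck, a membrane-anchored inhibitor of metalloproteinases, was at 59.0 ± 9.83 CPM (SD, n = 3) in astrocytes, 1.44 ± 0.319 in mKate2− and 1.20 ± 0.211 in mKate2+ cells, with log2 fold changes of -5.34 ± 0.22 (SE, edgeR adjusted P = 4.48e-06) and -5.54 ± 0.21 (edgeR adjusted P = 5.25e-06). Serpina3n was at 20.9 CPM in astrocytes against 0.295 CPM in mKate2− cells, and Spint2 at 12.5 CPM against 0.164 CPM in mKate2+ cells.

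The inhibitors called higher were Tfpi, the inhibitor of tissue factor, and the cystatin Cst6. Tfpi was at 8.22 ± 2.02 CPM in astrocytes, 53.3 ± 2.65 in mKate2− and 52.0 ± 3.08 in mKate2+ cells (SD, n = 3), a log2 fold change of 2.71 ± 0.19 (SE, edgeR adjusted P = 2.16e-05) and 2.74 ± 0.20 (edgeR adjusted P = 3.62e-05). Cst6 was higher by 1.25 ± 0.18 (edgeR adjusted P = 0.000619) and 1.86 ± 0.43 (edgeR adjusted P = 0.00741) on the log2 scale, the latter becoming 1.16 without mKate2+ replicate 2. Cst3, a cystatin and the most abundant of these inhibitors, was at 287 ± 88.8 CPM in astrocytes, 154 ± 11.9 in mKate2− and 210 ± 82.5 in mKate2+ cells and was not called. In mKate2+ replicate 2, Cst3 was at 305 CPM and Cst6 at 54.0 CPM, each the highest of its SB28 libraries.

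Among 20 other matrix metalloproteinases, 0 were called higher in tumor cells. In mKate2− cells 8 were tested and 5 called lower, and in mKate2+ cells 9 were tested and 5 called lower, with median log2 fold changes of -3.61 and -1.99. Of all genes tested 11.5% and 12.2% were called higher and 22.4% and 22.8% lower. Within the SB28 libraries 5 of the 20 passed the filter, and the others tested passed it only with the astrocyte libraries. Among the latter were Mmp15, Mmp17 and Mmp23, which were called lower, so neither the counts nor the medians describe all 20. The medians also rest on different genes: Mmp10, at 0.77, was tested in mKate2+ cells alone, while Mmp19 was at -1.81 and -1.99. Mmp3, a stromelysin and the most abundant of them in each astrocyte library, was at 114 ± 38.2 CPM (SD, n = 3) in astrocytes and at 2.01 ± 0.881 and 1.84 ± 0.387 CPM in mKate2− and mKate2+ cells. In SB28 libraries Mmp11 or Mmp28 was the most abundant instead, at 27.2 to 40.7 CPM, and neither was called. The membrane-bound Mmp17 was at 41.5 CPM against 0.590 and 0.606 CPM (log2 fold change -6.13 and -6.00), and Mmp15 at 44.2 CPM against 0.626 and 0.531 CPM (-6.12 and -6.29).

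Of 26 ADAM and ADAMTS metalloproteinases 18 were tested in each comparison, and 3 were called higher and 4 lower, with median log2 fold changes of -0.30 and -0.28. These shares are near those over all genes tested, of which 11.5% and 12.2% were higher and 22.4% and 22.8% lower. Adamts7, which cleaves cartilage matrix proteins, was higher by 1.49 ± 0.14 (SE, edgeR adjusted P = 9.78e-05) and 1.46 ± 0.15 (edgeR adjusted P = 0.000182) on the log2 scale, and Adam19 by 1.66 ± 0.16 and 1.70 ± 0.19. Adamts1 was lower, at 136 ± 52.2 CPM in astrocytes against 25.3 ± 5.54 and 21.9 ± 0.932 CPM (SD, n = 3). Adamts3 was called lower as well, at 13 to 81 counts in astrocytes and 0 to 2 counts in SB28 libraries. Adamts3 and Adamts5, which were 2 of the 4 called lower, passed the filter only with the astrocyte libraries, and 16 of the 26 genes passed it within the SB28 libraries. Adam9, the most abundant by its mean over the 9 libraries and in each SB28 library, was at 269, 289 and 273 CPM in astrocytes, mKate2− and mKate2+ cells and was not called.

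Of 10 other plasminogen system genes 7 were tested, with median log2 fold changes of 0.16 and 0.42. In mKate2− cells 1 was called higher and 1 lower and in mKate2+ cells 1 was called higher, beside 11.5% and 12.2% of all genes higher and 22.4% and 22.8% lower. S100a10, which with its partner Anxa2 forms a plasminogen receptor, was called higher in both comparisons, at 180 ± 46.1 CPM in astrocytes, 367 ± 37.8 in mKate2− and 461 ± 201 in mKate2+ cells (SD, n = 3). In mKate2− cells that call (log2 fold change 1.04) was lost under 4 alternatives, with values down to 0.84, and in mKate2+ cells (1.45) it was lost without mKate2+ replicate 2, at 0.99. Anxa2 itself, at 901, 1054 and 1144 CPM in the 3 populations, was not called. Serpini1, a neuronal inhibitor of Plat, was called lower in mKate2− cells (log2 fold change -1.43 ± 0.51, edgeR adjusted P = 0.0389), a call lost without astrocyte replicate 3 or any mKate2− library, at -0.69 in the weakest case. The mKate2+ value for Serpini1 was close to the mKate2− one, at -1.31 ± 0.50 (SE, edgeR adjusted P = 0.0521), and it was called under 6 alternatives, among them DESeq2 and the fit of all 9 libraries.

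Of 11 activating proteases and surface partners 10 were tested, and 2 were called higher and 2 lower in each comparison, with median log2 fold changes of 0.012 and 0.030. Over all genes the shares were 11.5% and 12.2% higher and 22.4% and 22.8% lower. Pcsk6, a proprotein convertase, was at 211 ± 71.3 CPM in astrocytes against 1.80 ± 1.32 and 1.62 ± 0.413 CPM (SD, n = 3), a log2 fold change of -6.87 ± 0.53 (SE, edgeR adjusted P = 3.45e-05) and -6.95 ± 0.36 (edgeR adjusted P = 9.69e-06), and the former was -7.64 without mKate2− replicate 3. The matrix glycoprotein Thbs2 was higher by 1.31 ± 0.24 and 1.27 ± 0.26. Calls for Itgb3 (1.05 and 1.17) and Thbs1 (-1.30 and -1.36) were lost in each comparison with several single libraries left out, among them astrocyte replicate 1 for Itgb3 and astrocyte replicate 3 for Thbs1. Itgb1, the most abundant at 1738, 1752 and 1650 CPM in astrocytes, mKate2− and mKate2+ cells, was not called. Between mKate2+ and mKate2− cells, 0 genes of these 5 wider lists were called by either rule. Over all 11854 genes tested, 0% were called at the adjusted P value and 0.363% by the study's rule. Of the lists, 5 inhibitors, 5 matrix metalloproteinases, 16 ADAM and ADAMTS genes, 7 plasminogen system genes and 10 partners were tested there.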

How the data were processed

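RNA-seq counts of 9 libraries were analysed. The authors deposited raw counts per gene, made, per the labels' processing notes, with Trimmomatic 0.36, STAR 2.5.2b on GRCm38 and featureCounts of Subread 1.5.2. The annotation release and the use of strand are not given in the sources used here. The written sort gates give CellTrace Violet to tumor cells and list the astrocytes as without mKate2, whereas the study's methods stain astrocytes, which carry the mKate2 transgene, so libraries were grouped by their names. Names, positions and lengths came from GENCODE M21, which holds 49056 of the 49315 gene IDs. The mKate2 transgene was not analysed here.

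Each comparison used its 6 libraries in edgeR 4.0.16 (R 4.3.3, limma 3.58.1), with TMM normalization, genes above 1 CPM in at least 2 libraries, the quasi-likelihood test and Benjamini-Hochberg adjustment over all genes tested. CPM used raw totals. Standard errors were the log2 fold change over the root of the F statistic, and intervals its 95% limits. Alternatives were DESeq2 1.42.0, upper-quartile scaling, no filter, all 9 libraries, a replicate block, removal of a gene length trend (loess, span 0.3) and each library left out. Lengths of the longest transcript, the tumor RNA gauge of 20 genes and percentages without astrocyte replicate 3 were added after seeing the data. Procedures were tested on simulated data.

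Named genes were all 9 members and, from 5 wider lists, the most abundant gene and the 2 with the smallest P values per direction among those called. Profile neighbours were the 2 genes nearest to each tested member, on log2 CPM with a prior count of 2. The members, lists and tests were chosen with earlier results of these data known. Depth was 24454561 to 39287841 counts per library, and P values measure the spread between 3 co-cultures.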

Additional observations from a re-analysis of the deposited data

How the results depend on the processing

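In the 2 comparisons with astrocytes, the direction and the call of Timp2, Timp3, Plau and Serpine2 held under every alternative that gave a value, and DESeq2 gave no adjusted P value for Serpine2, so it called 2 members lower in place of 3. Leaving out single libraries gave log2 fold changes of -1.19 to 0.20 for Mmp2 and -1.0 to 0.62 for Plat in mKate2− cells, and of -1.14 to 0.27 for Mmp2, -1.0 to 0.61 for Plat and -0.18 to 0.34 for Timp1 in mKate2+ cells. For Timp1 in mKate2+ cells against astrocytes, removal of the gene length trend gave -0.27. These reversals concern genes that were not called, and the cause was not tested.

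Between mKate2+ and mKate2− cells, removal of the gene length trend gave 0.021 for Mmp14 and -0.031 for Plau, and upper-quartile scaling -0.0073 for Plat. Leaving out single libraries gave -0.0080 to 0.11 for Mmp2, -0.091 to 0.049 for Mmp14, -0.054 to 0.17 for Timp2, -0.085 to 0.18 for Plau, -0.085 to 0.068 for Plat and -1.68 to 0.20 for Serpine2, and 0 to 2 members met the study's rule, applied in both directions. By it 23 genes were higher and 20 lower over all genes, against 62 higher with DESeq2, 224 and 35 without the filter, 41 and 12 with all 9 libraries, and 6 to 310 higher and 16 to 70 lower with single libraries left out. The lowest counts arose without mKate2+ replicate 2 and the highest without mKate2+ replicate 1.

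The study's methods take the 3 populations from 3 co-cultures, but the labels do not say that a replicate number marks a shared one. Deviations of mKate2+ and mKate2− libraries with numbers 1, 2 and 3 correlated at -0.0037, 0.14 and 0.17. The numbers were therefore not used to pair samples. In that comparison mKate2+ numbers 2 and 3 correlated best with their own number and number 1 did not. Against astrocytes, only number 1 of mKate2− cells and number 3 of mKate2+ cells correlated best with their own number. There mKate2+ number 2 correlated at 0.25 with astrocyte number 1 and at 0.066 with its own. A link of number to co-culture was thus not established. With the replicate block, log2 fold changes against astrocytes were -7.09 and -7.51 for Timp3, -5.85 and -6.74 for Serpine2 and 2.02 and 2.07 for Plau, no member's call changed, and 13 genes were higher and 33 lower between tumor populations by the study's rule. With genes at least 30 times higher in astrocytes (151 genes), the apparent astrocyte share was 1.22% in mKate2− and 1.06% in mKate2+ libraries, against 0.790% and 0.594%. With 2 to 32 reads, Mmp9 was under the filter and not tested, and its astrocyte libraries (0.245 to 0.978 CPM) lay above its SB28 libraries (at most 0.235 CPM).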

Other observations

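Astrocyte replicate 3 differed from its companions in several further genes. The matrix genes Postn (23.3 CPM) and Spock1 (13.0 CPM) were at no more than 0.205 and 0.0818 CPM in astrocyte replicates 1 and 2, and the aggrecanase Adamts5 was at 1.96, 3.73 and 23.1 CPM in replicates 1, 2 and 3. The growth factor receptor Fgfr3 was at 8.83, 9.72 and 63.1 CPM, Thbs1 at 220, 510 and 856 CPM, and the VEGF receptor Flt1 at 5.64, 12.4 and 192 CPM. The surface receptor of urokinase, Plaur, ran the other way at 66.7, 48.9 and 27.5 CPM, as did Olig2 in part, at 268, 159 and 155 CPM. These genes were chosen after their values were seen.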
